A study of Caenorhabditis elegans with 3 samples.

Results

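The his genes of Caenorhabditis elegans encode the core histones, their H3.3-type variants and the linker histone his-24. They were taken as every protein-coding gene of the Ensembl annotation (assembly WBcel235, the same as ce11) whose name is his- followed by digits. This rule gave 72 of 19973 protein-coding genes on the nuclear chromosomes. Ensembl repeats some of these names, so the members are called here by their RefSeq symbols, which are all distinct. Chained at gaps of at most 5000 bp, 67 of the 72 lay in 14 clusters and 5 stood alone. By their RefSeq products, 17 members encode H2A, 16 encode H2B, 15 encode H3, 16 encode H4, 5 encode H3.3 or an H3.3-like protein, 1 encodes the linker histone and 2 (his-39 and his-73) encode short proteins with a histone domain.

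Binding of EGL-27 was measured by chromatin immunoprecipitation and sequencing (ChIP-seq). EGL-27 has a GATA-type zinc finger and resembles MTA proteins, which are subunits of the NuRD chromatin complex. The 3 biological replicates came from whole L1 larvae of mixed sex of strain OP177, with the genotype unc-119(ed3) III and the transgene wgIs177, which carries EGL-27 with a GFP-FLAG tag at its C-terminus. All 3 replicates carry that allele and that transgene, the labels name the target as egl-27, and there was no second condition. Cell types cannot be told apart in whole larvae, and no expression was measured. The authors deposited a list of regions that passed their irreproducible discovery rate threshold (the IDR list) and longer relaxed lists, made up of peaks and background, for each replicate and for the replicates pooled. The IDR list was the shortest, the pooled list and the lists of replicates 1 and 2 held 30000 each, and the list of replicate 3 held 13516. Depth is unknown, because the lists hold no read counts, and the deposited signal is on a scale of its own in each list. A region was assigned to a gene when its summit lay in the gene or within 1 kb of either end. Counts are descriptions with no test, set beside the same count over all protein-coding genes.

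Histones package DNA into nucleosomes, each built from a pair of each core histone (H2A, H2B, H3 and H4), while linker histones bind the DNA between nucleosomes. Most core histone genes are copied in clusters, have no intron and are transcribed when DNA replicates. Their mRNAs end in a stem-loop in place of a poly(A) tail. H3.3-type variants are made outside S phase as well, from genes that stand apart and often have introns.

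Most his genes were arranged head to head. There were 31 neighbouring pairs transcribed away from each other, holding 62 of the 72 genes, and the spacer between their annotated starts was 227 to 368 bp long, with a median of 258 bp. For 64 of the 72 genes the annotated span is the coding span plus the stop codon, so their annotated start is the start codon. Spacers, offsets and upstream windows of these genes are counted from there. An H2A gene faced an H2B gene in 16 pairs, an H3 gene faced an H4 gene in 14, and an H2A gene faced an H4 gene in 1. The 31 spacers had 21 distinct sequences, since 16 of them had at least 1 identical copy in another pair. The sequences below (RefSeq genome, ce11, plus strand) show this promoter architecture, the first 5 around an EGL-27 summit of the pooled list and the last 3 in spacers without one. The first lies upstream of his-37, which is in no such pair. Those of his-61/his-62 and his-31/his-32 are cut to 100 bp either side of the summit, from spacers of 327 and 321 bp, and the other 5 are whole spacers. Capitals mark GGGGACAC, the most frequent 8-base word upstream of his genes, and GAGAGA, on either strand.
his-37 upstream, chrV:9546921-9547104: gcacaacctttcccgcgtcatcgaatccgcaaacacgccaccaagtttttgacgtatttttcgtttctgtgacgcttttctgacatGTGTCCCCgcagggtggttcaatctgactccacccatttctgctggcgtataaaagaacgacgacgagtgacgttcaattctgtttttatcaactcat
his-61/his-62, chrIV:7486285-7486485: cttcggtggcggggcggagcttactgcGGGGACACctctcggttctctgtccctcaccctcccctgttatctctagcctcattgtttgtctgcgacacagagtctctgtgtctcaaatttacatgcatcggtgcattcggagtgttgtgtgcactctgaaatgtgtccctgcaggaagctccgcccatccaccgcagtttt
his-60/his-59, chrIV:7487993-7488248: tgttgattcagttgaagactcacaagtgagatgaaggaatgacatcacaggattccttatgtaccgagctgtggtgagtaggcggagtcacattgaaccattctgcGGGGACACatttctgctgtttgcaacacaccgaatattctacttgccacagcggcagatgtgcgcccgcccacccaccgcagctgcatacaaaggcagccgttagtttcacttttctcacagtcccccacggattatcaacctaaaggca
his-31/his-32, chrIV:8334018-8334218: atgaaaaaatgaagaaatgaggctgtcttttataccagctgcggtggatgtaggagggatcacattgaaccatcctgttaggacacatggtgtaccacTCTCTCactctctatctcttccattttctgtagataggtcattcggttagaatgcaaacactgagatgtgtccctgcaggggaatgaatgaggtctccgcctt
his-4/his-3, chrV:16040516-16040807: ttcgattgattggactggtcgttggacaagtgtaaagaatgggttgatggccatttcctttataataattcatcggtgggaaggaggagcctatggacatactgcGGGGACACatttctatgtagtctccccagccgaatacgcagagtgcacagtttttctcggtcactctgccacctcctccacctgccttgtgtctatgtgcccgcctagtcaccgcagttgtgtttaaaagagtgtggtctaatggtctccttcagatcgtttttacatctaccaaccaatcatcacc
his-14/his-13, chrII:13819938-13820209: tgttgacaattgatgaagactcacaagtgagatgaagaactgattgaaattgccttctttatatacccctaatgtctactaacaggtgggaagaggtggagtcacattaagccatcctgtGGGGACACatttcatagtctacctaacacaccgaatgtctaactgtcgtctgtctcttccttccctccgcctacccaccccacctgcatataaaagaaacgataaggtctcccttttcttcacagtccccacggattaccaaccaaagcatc
his-51/his-52, chrV:8850172-8850463: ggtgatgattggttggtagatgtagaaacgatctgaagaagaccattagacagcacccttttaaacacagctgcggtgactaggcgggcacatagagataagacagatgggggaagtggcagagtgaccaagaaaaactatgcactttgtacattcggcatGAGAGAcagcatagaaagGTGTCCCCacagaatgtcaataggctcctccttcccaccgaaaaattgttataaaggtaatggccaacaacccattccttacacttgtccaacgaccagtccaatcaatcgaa
his-38/his-40, chrX:7309876-7310109: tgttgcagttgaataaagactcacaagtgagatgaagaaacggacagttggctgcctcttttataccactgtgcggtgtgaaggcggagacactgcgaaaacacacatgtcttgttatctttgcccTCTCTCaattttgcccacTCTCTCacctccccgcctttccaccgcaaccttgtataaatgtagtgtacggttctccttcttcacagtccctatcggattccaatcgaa

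GGGGACAC stands in 6 of these 8 sequences. Those with the word but no pooled summit, his-14/his-13 and his-51/his-52, are spacers that are 100% repeated, as described below. A missing region in such sequence does not show that EGL-27 is absent, so whether the word occurs without EGL-27 was not tested. The sequences lacking the word are those of his-31/his-32, with a pooled summit, and his-38/his-40, without one. Both come from spacers with 0% repeated words. The spacer of his-14/his-13 has 3 identical copies in the genome and that of his-51/his-52 has 4, counting itself. The other 5 spacers shown here have no identical copy over their whole length. Of the spacers with under 50% repeated words, 6 held no pooled summit, and only his-38/his-40 of these is shown. Those of his-63/his-64, his-8/his-7, his-6/his-5, his-35/his-41 and his-2/his-1 are not shown. Nor is that of his-67/his-68, which held a summit. The 8 sequences thus do not show how often the word goes with a summit.

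EGL-27 regions of the IDR list lay at 2 of the 19 his loci, near 4 of the 72 genes (5.56%), against 2.5% of all protein-coding genes. The 4 genes were his-37 and his-41 at one locus and his-67 and his-68 at the other. Since each locus had 1 region that was counted for 2 genes, the share rests on 2 regions. Leaving out any 1 replicate, and asking for the region to be among the highest of both others, kept 1 locus and 2 genes, those of his-37. The his-67/his-68 region ranked too low for this in replicates 1 and 2, so it drops out whichever replicate is left out.

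The highest region at any his locus lay just upstream of his-37, an H4 gene with an intron. Its pooled signal was 58.5, rank 76 in the pooled list and so among the IDR regions. The region spans chrV:9546843-9547198, with its summit at position 9547021, 84 bp before the annotated start of his-37 (chrV:9547105-9547607, plus strand). Replicate 1 had a region here with signal 17.1 (rank 86 in its own list), replicate 2 had one with signal 24.3 (rank 88), and replicate 3 had one with signal 18.6 (rank 154). In all 3 replicates this region was the highest at any his locus. The replicate summits lay 52, 86 and 46 bp upstream of his-37, so they fell within 40 bp of each other. Among the starts of other protein-coding, tRNA, snRNA, snoRNA, rRNA and miRNA genes, the nearest was that of C50F4.6, 929 bp away. The window of his-41, an H2B gene (chrV:9545536-9546264), takes in the same summit, which is 757 bp past its end. The third gene of this cluster, the H2A gene his-35 (chrV:9544659-9545288, minus strand), was the only his gene with its nearest IDR summit between 1 and 2 kb away, at 1733 bp.

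Weaker regions of the pooled list surrounded this locus. One lay inside his-41, 385 bp after its start, with signal 13.2 and rank 3720, and this summit was 171 bp upstream of C50F4.6. Replicate 2 had a region inside his-41 of signal 16.5 and rank 270, whereas replicates 1 and 3 had none inside that gene. A further 3 pooled summits, with signals 11.6, 11.1 and 8.48, lay downstream of his-35. All 3 were nearer to the start of mdf-1, a gene of the spindle assembly checkpoint, than to a his start.

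The second IDR region lay between his-67 (H4) and his-68 (H2A) on chromosome I, at chrI:9988817-9989172. Its pooled signal was 34.5, rank 352, and its summit lay 137 bp upstream of his-68 and 232 bp upstream of his-67. The highest region at this pair had signal 8.62 in replicate 1 (rank 901), 12.2 in replicate 2 (rank 763) and 13.3 in replicate 3 (rank 333). The replicate summits were 167, 137 and 150 bp upstream of his-68. All 3 therefore lay in the 368 bp spacer, with only the region of replicate 3 ranked within the IDR list's length. The start of alg-5, which encodes an Argonaute protein, was 807 bp from the pooled summit. A second pooled region with signal 7 and rank 19794 lay downstream of his-68 and was 138 bp from the start of alg-5.

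**Figure D1:**
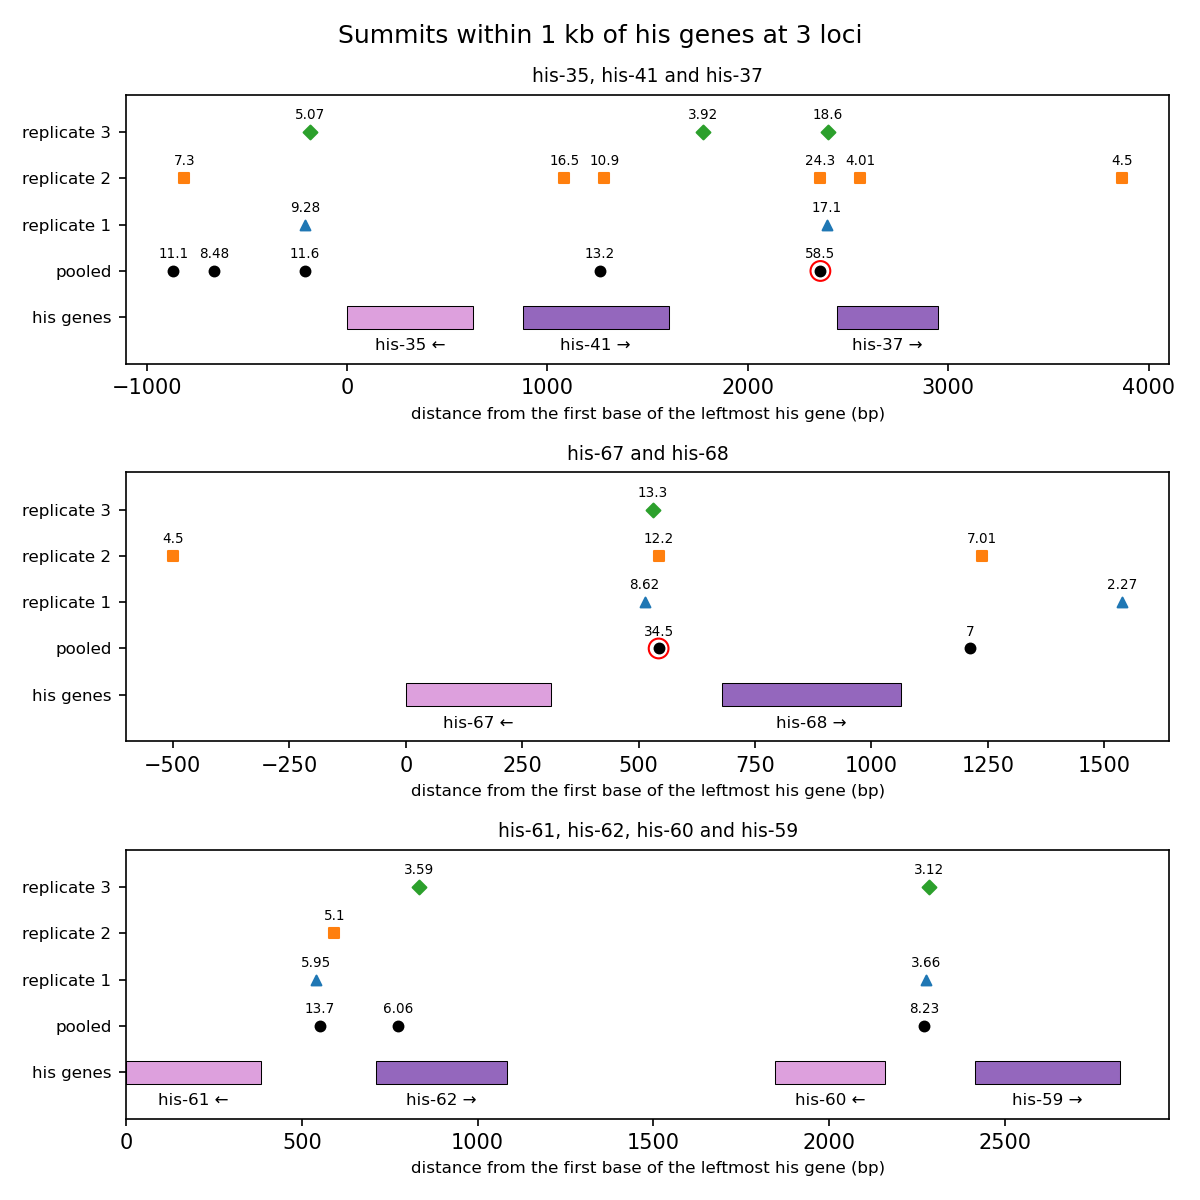
Summits within 1 kb of his genes at the his-35 to his-37 locus (top), the his-67 and his-68 pair (middle) and the his-61 to his-59 cluster (bottom), by list; the x axis is distance in bp from the first base of the leftmost his gene, numbers are deposited signal (each list has its own scale), arrows give the strand and red circles mark IDR regions. At the upper 2 loci the summits of all replicates stack at 1 site, upstream of his-37 and between his-67 and his-68.

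Of the pooled regions at his loci that missed the IDR list, the highest lay near the last gene of the largest cluster. The 13 genes from his-16 to his-42 on chromosome II (chrII:13817760-13828697) are H2A, H2B, H3 and H4 genes in repeated blocks. Only his-42, an H3 gene (chrII:13828287-13828697, minus strand), had a pooled region within 1 kb. Its signal was 27.4, rank 593, and the summit lay 613 bp upstream of his-42 and 181 bp after the start of the snRNA gene F08G2.10, so an snRNA start was nearer than the his start. The highest region here had signal 8.69 in replicate 1 (rank 876) and 10.1 in replicate 3 (rank 658), and replicate 2 listed none within 1 kb of any gene of the cluster. The lowest signal in the IDR list was 28.9.

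A pooled region lay within 1 kb of 24 his genes (33.3%), against 72.9% of all protein-coding genes. Of the 24, 19 were among the 67 clustered genes and 5 were the 5 single genes. Among the 5000 highest pooled regions, the counts were 12 his genes (16.7%), against 19.6% of all protein-coding genes. His genes are short, with a median annotated length of 384 bp against 2027 bp for all protein-coding genes, so their windows are shorter. The annotated span of 64 his genes holds no untranslated ends. With a window of 1000 bp either side of the annotated start, equal for every gene, a pooled region lay at 23 his genes, against 50.9% of all protein-coding genes.

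The replicate lists differed in how many his genes they reached. Replicate 1 had a region at 27 his genes (37.5%), against 74.1% of all protein-coding genes. Replicate 2 had one at 10 his genes (13.9%), against 72.7%, and replicate 3 had one at 21 his genes (29.2%), against 42.7%. Replicate 2 was the lowest of the 3 at his genes although its list was as long as that of replicate 1. A region in all 3 lists was found at 9 his genes (12.5%), against 30.9% of all protein-coding genes. The 9 genes were his-67, his-68, his-72, his-61, his-62, his-35, his-41, his-37 and his-24, from 5 loci. Without replicate 2, 20 his genes had a region in both other lists. The summits of all replicates came within 200 bp of each other at 5 his genes (6.94%), against 7.2% of all protein-coding genes.

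**Figure D2:**
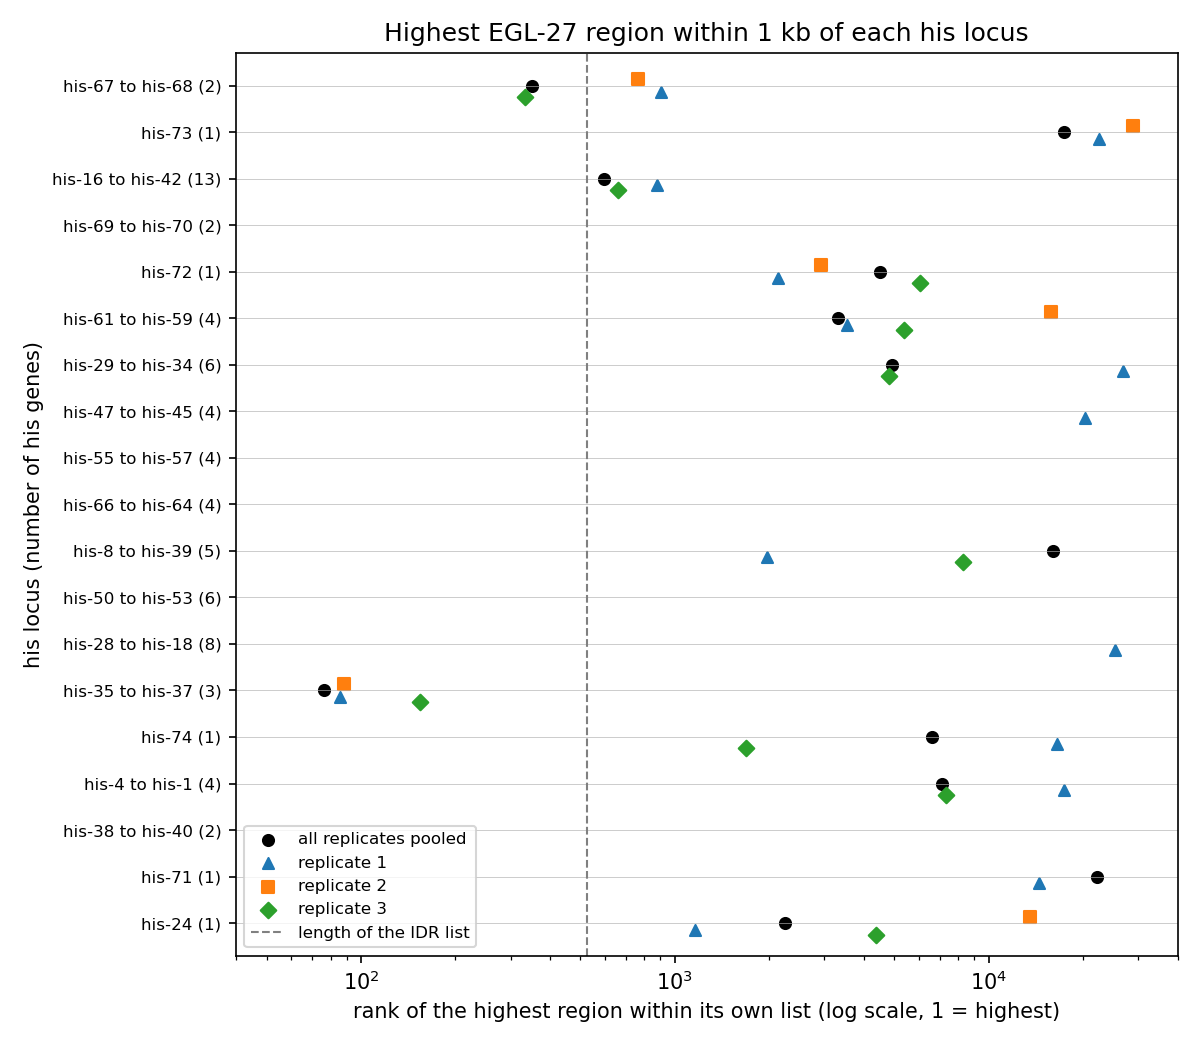
Rank of the highest region within 1 kb of each his locus (x axis, log scale, 1 is the highest in its own list) for the pooled list and each replicate; rows are the 19 loci with their number of his genes, and the dashed line is the length of the IDR list. The his-35 to his-37 locus is left of the line in every list, the his-67 and his-68 pair lies around it, and 5 loci have no point in any list.

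In all, 24 distinct pooled regions lay within 1 kb of the his loci, 16 at clusters and 8 at single genes. That is 0.238 regions per kb of merged window, against 0.301 over the windows of all protein-coding genes. Over clusters alone the density was 0.185 per kb and over single genes it was 0.569 per kb. Clusters hold more repeated sequence, as described below. Over the his windows in which under 10% of 50-base words occur more than once in the genome, the density was 0.496 per kb. The density over all protein-coding genes was not computed under that limit, so 0.301 is not its counterpart. The part of clustering or repetition in these densities was not tested. Of the 24 summits, 12 lay upstream of the nearest his start and outside any his gene, 4 lay inside a his gene and 8 lay downstream. Among starts of protein-coding, tRNA, snRNA, snoRNA, rRNA and miRNA genes, a his start was nearest for 13 summits and another start for 11. The median highest signal per his gene with a pooled region was 11.3 over 24 genes, against 9.13 over the 14554 protein-coding genes with one. Neighbouring his genes share regions, so some regions enter this median more than once. With each region taken once per locus, the median signal of the 24 regions was 10.2, against 7.91 over the whole pooled list.

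Among the other clusters, the his-61 to his-59 cluster on chromosome IV (chrIV:7485834-7488659; H2A, H2B, H4 and H3) had a summit in both of its spacers. The his-61/his-62 spacer had the higher pooled signal, 13.7 (rank 3311), with the summit 160 bp upstream of his-62. Replicates 1 and 2 had regions in that spacer with signals 5.95 (rank 3541) and 5.1 (rank 15826), while the region of replicate 3 there, of signal 3.59 (rank 5391), had its summit 122 bp inside his-62. The his-60/his-59 spacer had a pooled signal of 8.23 and a summit in replicates 1 and 3 but not in replicate 2. Apart from his genes, no protein-coding, tRNA, snRNA, snoRNA, rRNA or miRNA gene had its start within 3 kb of these summits. Each of the 4 genes therefore had a region in the pooled list, and none reached the IDR list.

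In the his-29 to his-34 cluster (chrIV:8331044-8336340) only the middle pair had a pooled summit. The his-31/his-32 spacer had signal 11.9 and rank 4917, and the outer spacers of his-29/his-30 and his-33/his-34, which are identical copies of each other, had no summit in any list. Replicate 1 had a region at this cluster of signal 2.38 (rank 26729) and replicate 3 one of signal 3.81 (rank 4811), with none in replicate 2. In the his-4 to his-1 cluster (chrV:16040144-16042831), the his-4/his-3 spacer had a pooled signal of 10.4 (rank 7124). The regions there had signals 3.19 in replicate 1 and 3.05 in replicate 3, and replicate 2 had none. The his-2/his-1 spacer of the same cluster held no pooled summit.

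The his-8 to his-39 cluster (chrV:8532715-8536716) had 2 pooled regions, of signal 7.69 and 6.74, and no summit in its spacers. The higher one lay between his-7 and his-6, where both genes end. The highest region at this cluster had signal 7.02 in replicate 1 (rank 1965) and 2.83 in replicate 3 (rank 8296), and replicate 2 had none. Of the 31 spacers in all, 5 held a pooled summit: those of his-67/his-68, his-61/his-62, his-60/his-59, his-31/his-32 and his-4/his-3.

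No pooled region was found within 1 kb of 48 his genes (66.7%), all of them in clusters. These were 12 of the 13 genes of the his-16 cluster, the 4 outer genes of the his-29 cluster, his-1 and his-2, and every gene of 7 loci. The 7 loci were the pairs his-69/his-70 (H3.3-like) and his-38/his-40 (H4 and H3), the chromosome IV clusters his-47 to his-45 (chrIV:11324056-11326998), his-55 to his-57 (chrIV:11337853-11341703) and his-66 to his-64 (chrIV:11400415-11407427), and the chromosome V clusters his-50 to his-53 (chrV:8847393-8854053) and his-28 to his-18 (chrV:8889488-8898539). Replicate 1 alone listed a region at his-47 (signal 2.9, rank 20269) and at his-18 (signal 2.49, rank 25307). The other 5 of these loci had no region in any list.

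The 5 single genes each had a pooled region, none of it in the IDR list. The linker histone gene his-24 (chrX:14490094-14491119) had the highest, with a signal of 15.9 (rank 2240) at a summit 1263 bp after its start and past its end, and a second of signal 10 that lay 36 bp upstream of its start. Its highest region had signal 8.09 in replicate 1 (rank 1156), 5.44 in replicate 2 (rank 13565) and 3.99 in replicate 3 (rank 4371). In replicates 1 and 3 the highest summit was the one past the gene's end, and in replicate 2 it was the one at the start.

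The H3.3 gene his-72 (chrIII:12367475-12369050) had a pooled signal of 12.3 (rank 4514) at a summit 328 bp upstream of its start. Its highest region had signal 6.87 in replicate 1 (rank 2139), 8.69 in replicate 2 (rank 2917) and 3.38 in replicate 3 (rank 6058). The summits of replicates 2 and 3 lay upstream of the gene, at 354 and 542 bp, and that of replicate 1 lay beyond its other end, 20 bp from the start of Y75B8A.33. The other H3.3 gene, his-71 (chrX:7981382-7982070), had a pooled signal of 6.62 (rank 22231) at 644 bp upstream and was reached by replicate 1 only, whose highest region had signal 3.51 (rank 14480).

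The H3.3-like gene his-74 (chrV:12659704-12660330) had a pooled signal of 10.7 (rank 6616), but at a summit past its end, 77 bp after the start of ccch-3. There the signal was 6.45 in replicate 3 (rank 1692), and the region of replicate 1, of signal 3.28, lay inside his-74. Replicate 2 had none. The short gene his-73 (chrII:13183705-13183845) had a pooled signal of 7.43 (rank 17365) at a summit that was nearer to the start of W09H1.3. Its regions had signals 2.71 in replicate 1 and 3.71 in replicate 2, and replicate 3 had none. Among the single genes, only his-24 and his-72 had a region in all 3 lists. With a window of 1000 bp upstream to 200 bp downstream of the start, 3 of the 5 single genes had a pooled region.

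The his genes also differ from other genes in how much of their sequence is repeated. A 50-base word was counted as repeated when it occurs more than once in the genome on either strand. In the gene and 1 kb on each side, the median share of repeated words was 57.99% over the 72 his genes, against 0.05% over all protein-coding genes. The clusters his-50 to his-53 and his-28 to his-19 are identical over all 6661 bases and lie within a run of 15287 identical bases, so both are 100% repeated. Of the 72 genes, 35 have an annotated sequence identical to that of another member.

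Presence in the lists moved with this share. Among the 20 his genes with under 10% repeated words, 15 had a pooled region (75%), against 76.2% of all protein-coding genes in that class. Among the 12 with 10 to 50%, 8 did (66.7%), against 57.6%. Among the 40 with 50% or more, 1 did (2.5%), against 9.23% of the 390 protein-coding genes in that class, and that 1 gene was his-42. The replicate lists differed within these classes. Under 10%, replicate 1 had a region at 16 of the 20 his genes (80%), against 77.3% of all protein-coding genes, replicate 2 at 9 (45%), against 75.9%, and replicate 3 at 13 (65%), against 45.3%. At 10 to 50%, replicate 1 had a region at 8 of the 12 his genes (66.7%), against 59.5%, replicate 2 at 1 (8.33%), against 58.2%, and replicate 3 at 6 (50%), against 28.6%. In both classes replicate 2 was below the share of all protein-coding genes and replicate 3 was above it, while replicate 1 was near it. These shares are counts of genes, and genes of a cluster share regions. They are not corrected for the shorter his windows. Per kb of merged his window under 10%, replicates 1, 2 and 3 had 0.418, 0.366 and 0.313 regions. Over the windows of all protein-coding genes, of any repetition, the densities were 0.3, 0.304 and 0.131. By density replicate 2 was thus not below this background, which is not limited to that class. These classes were chosen after the values were seen. An IDR region lay at 4 of the 20 his genes under 10% (20%), at 2 loci, against 2.71% of all protein-coding genes in that class. All 4 genes with an IDR region had under 10% repeated words, as did 87% of all protein-coding genes.

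**Figure D3:**
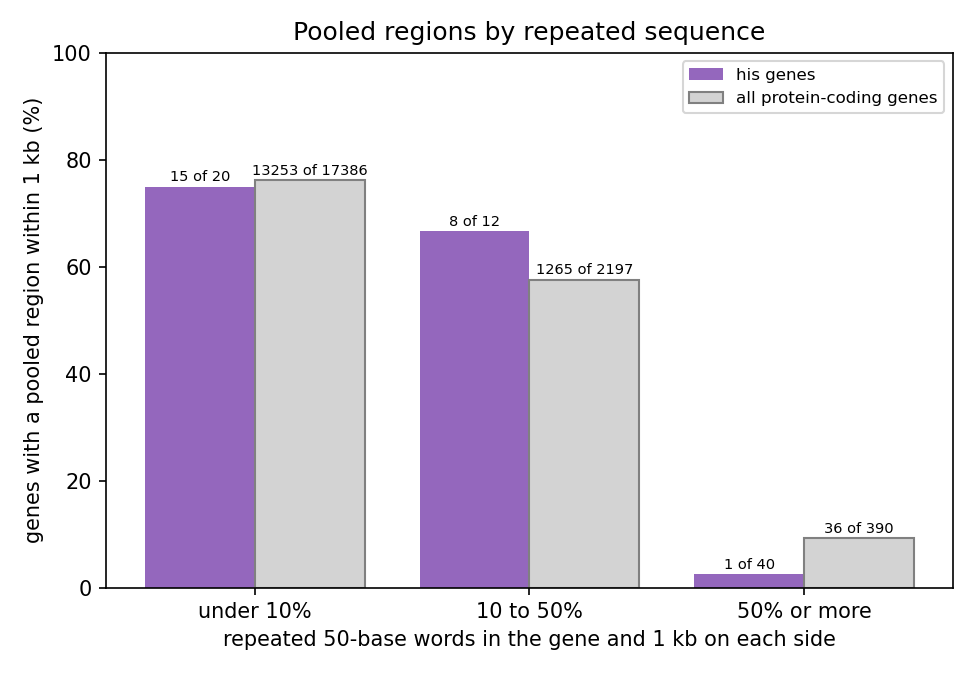
Share of genes with a pooled region within 1 kb (y axis, %) by the share of repeated 50-base words in the gene and 1 kb on each side (x axis), for his genes (purple) and all protein-coding genes (grey); counts stand above the bars. The share is low in the class of 50% or more for both sets, and 40 of the 72 his genes are in that class.

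The same held for single summits and spacers. Of the 24 pooled summits at his loci, 19 had no repeated word starting within 100 bp, and 1 had 50% or more, the one next to his-42. Over the whole pooled list 59 of 30000 summits (0.197%) had 50% or more, against 5.98% of all positions of the genome. Of the 20 spacers with 50% or more repeated words none held a pooled summit, and of the 11 others 5 did. How the authors treated reads that match several places is not given in the sources used here. Its part in the missing regions was not tested, so a missing region at a repeated his cluster does not show that EGL-27 is absent there. Low repetition did not by itself go with a region: his-69, his-70, his-38, his-40 and his-1 had under 10% repeated words and no pooled region.

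**Figure D4:**
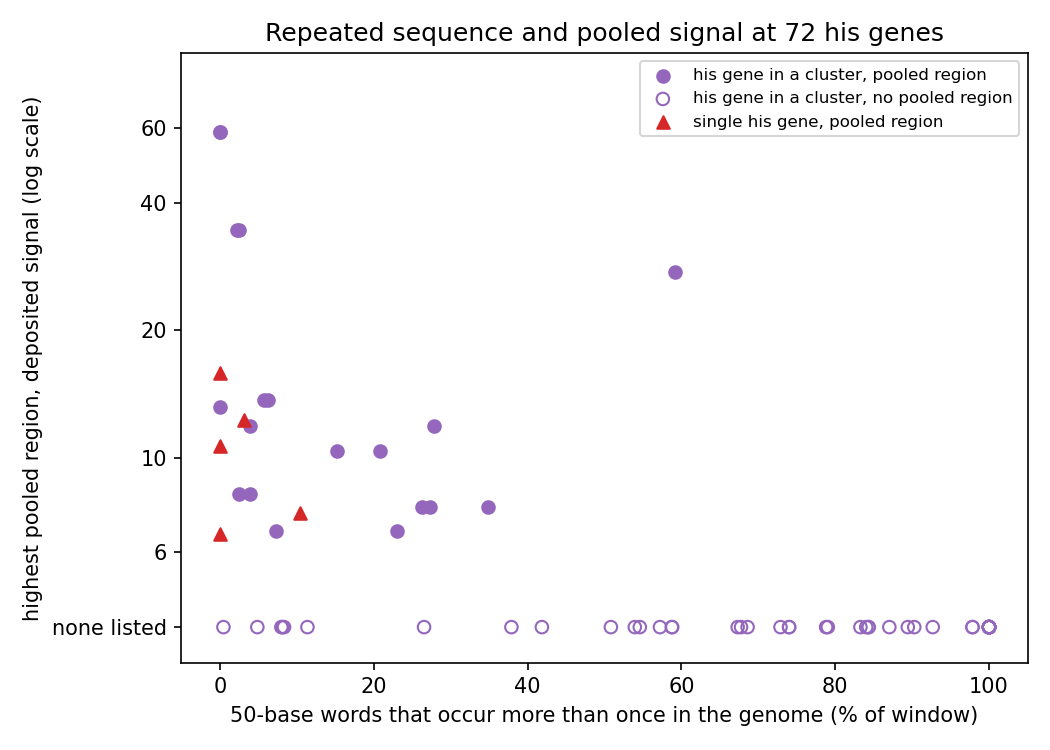
Highest pooled signal within 1 kb (y axis, log scale; open circles at the bottom are genes with no pooled region) against the share of repeated 50-base words in the window (x axis) for the 72 his genes; circles are clustered genes and triangles single genes. Beyond 50% the only point above the bottom row is his-42, with signal 27.4.

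Gene structure set the members apart as well. A perfect stem of 6 bases with a loop of 4 bases was found within 100 bases after the stop codon in 56 of the 72 his genes, against 7.5% of all protein-coding genes. It is shown here in its 2 forms, as DNA with the stem in capitals, because it marks mRNAs made during replication.
common form (51 genes on chromosomes II, IV, V and X): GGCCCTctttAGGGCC
second form (4 genes on chromosome V): GGCCCTcttaAGGGCC

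The counts beside the forms cover 55 of the 56 genes; the other gene, his-67, also has one of the 2 forms. None of the 19901 other protein-coding genes had either form in that window. The 16 his genes without a stem-loop were the 5 single genes, his-35, his-41 and his-37, his-69 and his-70, and his-68, his-47, his-57, his-39, his-53 and his-19. An intron interrupts the coding sequence of 8 members, his-72, his-57, his-35, his-41, his-37, his-74, his-71 and his-24, and all 8 lack the stem-loop. A pooled region lay near 7 of the 8 genes with an intron and 17 of the 64 without one, against 72.9% of all protein-coding genes. It lay near 10 of the 16 genes without a stem-loop and 14 of the 56 with one. For the IDR list the counts were 2 of 8 and 2 of 64 by intron. By stem-loop they were 3 of 16 and 1 of 56, against 2.5% of all protein-coding genes. These IDR counts rest on 2 regions, and that of his-67/his-68 counts on both sides of the stem-loop split. Of the 8 genes with an intron, his-57 had 41.87% repeated words and no pooled region. The others had at most 3.15%, and each had a pooled region. Genes without an intron also occur under 10% repeated words. Of these, his-67, his-68, his-61, his-62, his-60, his-59, his-31 and his-39 had a pooled region. By contrast, his-69, his-70, his-38, his-40 and his-1 had none. The part of intron, stem-loop or repetition was not tested, and the stem-loop counts were not split by repetition.

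Some short words were shared between the upstream sequences. In the 300 bp before the annotated start, on either strand, GGGGACAC was present at 44 of 72 his genes (61.1%), against 0.521% of all protein-coding genes. This word was chosen as the most frequent among his genes, and their upstream sequences include identical copies. GAGAGA, a word that GAGA-type factors bind in flies, was present at 45.8% of his genes, against 21.6%. TATAAA, the core of the TATA box, was present at 70.8%, against 39.6%. GATAA, a core GATA factor site, was present at 77.8%, against 58%, and CACGTG, an E-box, at 1.39%, against 5.74%. Head-to-head pairs hold 62 of the 72 his genes, with spacers of 227 to 368 bp, so paired genes share much of this window. The same sequence is thus often counted more than once, and these shares are not those of independent promoters. By pair, GGGGACAC was present at 21 of 31, GAGAGA at 16, TATAAA at 24, GATAA at 25 and CACGTG at 0. The counts by pair have no background here.

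The same words were counted at the 24 pooled regions of his loci, of which 2 are IDR regions. Within 100 bp of the summit, GAGAGA was present in 6 of the 24 pooled regions at his loci (25%), against 56.5% of the IDR regions and 18% of all pooled regions. Within 50 bp it was present in 2 of the 24 (8.33%), against 36.8% of the IDR regions and 10.2% of all pooled regions, so the order against all pooled regions turned with the window. Of the 2 IDR regions at his loci, the his-67/his-68 summit had it within 100 bp and the his-37 summit did not. GGGGACAC stood within 100 bp at 6 of the 24 (25%), against 1.53% of the IDR regions and 0.327% of all pooled regions, and both IDR regions at his loci were among the 6. This word was chosen for its frequency upstream of his genes, where 61.1% have it. A higher share at summits near these genes therefore follows from the choice and says nothing about EGL-27. GATAA stood at 7 of the 24 (29.2%), against 24.8% of the IDR regions and 37% of all pooled regions. TATAAA stood at 5 (20.8%), against 8.59% and 17.5%, and CACGTG at 1 (4.17%), against 11.3% and 4.27%. Within 50 bp, TATAAA stood at 8.33%, against 8.71% of all pooled regions, and CACGTG at 4.17%, against 2.33%. The order against all pooled regions thus turned with the window for these words too.

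Genes whose products handle histones were looked at beside the his genes. The list held 24 genes for variant and linker histones, chaperones and the stem-loop binding protein. An IDR region lay within 1 kb of 2 of the 24, against 2.5% of all protein-coding genes, and a pooled region lay within 1 kb of 21, against 72.9%. The 2 genes were htz-1, which encodes the variant H2A.Z, and chaf-1, which encodes a subunit of the CAF-1 chaperone. At htz-1 the pooled signal was 40 (rank 236) at a summit 307 bp upstream of the start. Its signal was 11.4 in replicate 1 (rank 367), 11.6 in replicate 2 (rank 919) and 16.7 in replicate 3 (rank 201).

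At chaf-1 the pooled signal was 32 (rank 415), at a summit 2547 bp after its start and past the gene's end. The signal was 8.91 in replicate 1 (rank 810), 15.9 in replicate 2 (rank 300) and 10.4 in replicate 3 (rank 609). The next highest of the list was lin-53, a WD-repeat histone-binding protein, with a pooled signal of 24.8 (rank 755) at 240 bp upstream. At htz-1 and lin-53 the highest summit of each replicate was upstream of the start, and at chaf-1 each lay downstream of it. Replicate 1 had a region at 18 of the 24 genes, against 74.1% of all protein-coding genes, replicate 2 at 21, against 72.7%, and replicate 3 at 11, against 42.7%. A region in all 3 lists was found at 8 of the 24, against 30.9%. Repeated words made up at most 16.28% of the window at these 24 genes, against a median of 59.19% at the clustered his genes.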

How the data were processed

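ChIP-seq region lists for EGL-27 from 3 biological replicates were analysed as 1 group. Per the file headers and the labels, the authors made a relaxed list for each replicate and for all replicates together, against 1 control alignment, and an IDR list. Neither aligner nor peak caller is given in the sources used here. Signal values, as deposited, are the authors' measure of region height against control, with an unstated scale, and served only to describe and order regions inside 1 list. The deposited −log10 q-value was not used. Summit offsets, as deposited, placed each region. Lists on ce10 were not used here.

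Genes came from Ensembl and symbols, products and sequence from RefSeq (WBcel235). Windows were the gene plus 1000 bp on each side, clusters were chained at 5000 bp, and each region was counted once per locus. Every his gene or locus near an IDR region, every single gene, each cluster and the 10 loci of highest pooled signal were named, with the histone-handling genes near an IDR region and the 3 of highest signal. The members and lists were chosen with earlier results of these data known. There is 1 group and no condition, so no test was made. Labels number the replicates as biological; nothing else says how their cultures were separated. The counting was tested on simulated positions. Alternatives were other windows, positions, gaps, list lengths, word lengths and replicates left out. Python 3.11.15, numpy 2.4.6, pandas 2.3.3 and matplotlib 3.10.9 were used.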

Additional observations from a re-analysis of the deposited data

How the results depend on the processing

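With summits replaced by region middles, all 9 counts and medians of regions at his genes kept their values. The summits of the regions at his loci lie at or next to their middles, so this setting could hardly move a count. Leaving out 1 replicate at a time made no new IDR list. It asked for each IDR region to rank within the IDR list's length in both other replicates. This gave 2 his genes and 1 locus in each case, the his-37 locus, against 4 genes and 2 loci. The his-67/his-68 region misses that rank in replicates 1 and 2, so it drops out whichever replicate is left out. A region in every remaining list was found at 9 to 20 his genes, against 9. Keeping only IDR regions above the median signal of their list gave 2 genes at 1 locus, and taking the 5000 highest pooled regions in place of the IDR list gave 12 genes at 7 loci. The count of genes with a region in all replicate lists was 16 with windows of 2000 bp, 5 with a window of 1000 bp upstream to 200 bp downstream of the start, and 5 with the summits within 200 bp. The window of 1000 bp upstream to 200 bp downstream gave 3 single genes with a pooled region, against 5. The median highest pooled signal was 11.3, and it was 11.8 with 500 bp, 11.9 with 2000 bp, 10.7 around the start alone and 11.9 in the upstream window. The median share of repeated words was 57.99% with 50 bases and 59.24% with 36 bases. GAGAGA was at 6 his regions within 100 bp of the summit and at 2 within 50 bp, against 18% and 10.2% of all pooled regions. The cause of these changes was not tested, beyond the fewer or more regions that each setting admits. No paired analysis was possible because there is 1 group. Depth is unknown, and regions below the relaxed lists' floor are not listed.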
